A study of Mus musculus with 9 samples.

Results

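The genes described here encode the mitochondrial respiratory chain and the ATP synthase, together with a few factors that assemble complex I. They were chosen by symbol alone: every gene whose symbol starts with Nduf, Uqcr, Atp5, Cox4, Cox5, Cox6, Cox7 or Cox8, plus Sdha, Sdhb, Sdhc, Sdhd, Cyc1 and Cycs, with pseudogene symbols dropped. The rule gave 89 of the 22180 genes measured: 32 subunits of complex I, 8 complex I assembly factors, the 4 subunits of complex II, 9 genes of complex III and cytochrome c, 19 of complex IV and 17 of the ATP synthase. No measured value entered the rule, but the list was chosen with earlier results of these data known. Each gene was read by its probe set of highest mean.

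Kidney RNA was profiled from male mice on a whole-transcript Affymetrix gene array, 1 array per mouse and 3 mice per group. The groups were nondiabetic *db/m* mice given vehicle, diabetic *db/db* mice given vehicle, and *db/db* mice given irbesartan, a blocker of the angiotensin II type 1 receptor. Treatment lasted 12 weeks, and the series description gives an age of 10 weeks at its start in the *db/db* mice, whereas the methods name a younger age at purchase. *db/db* mice lack the long leptin receptor and become obese and diabetic, so the comparison with *db/m* mice covers obesity and diabetes together. The labels name the kidney and the methods the renal cortex.

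Respiratory chain complexes sit in the inner mitochondrial membrane. Complexes I and II feed electrons into ubiquinone, complex III passes them on to cytochrome c, and complex IV hands them to oxygen. Complexes I, III and IV pump protons, and the ATP synthase lets these flow back to make ATP. Most subunits come from nuclear genes, but some core subunits of complexes I, III and IV and parts of the ATP synthase membrane sector are encoded by mitochondrial DNA. The renal tubule, above all its proximal segment and thick ascending limb, is among the tissues richest in mitochondria, since sodium transport there runs on oxidative ATP. Several complex IV subunits exist as a common form and a form used mainly in muscle, testis or lung.

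Promoter windows are shown for 4 genes on which the results turn: *Cox6b2*, which had the largest difference from *db/m* mice, its common partner *Cox6b1*, and *Ndufa6* and *Atp5o*, which differed in opposite directions. Each window holds 250 bases before and 50 bases after the annotated start, from RefSeq on GRCm38.p6, written 5′ to 3′ on the strand of the gene. *Cox6b2* lies at chr7:4753045-4753344, *Cox6b1* at chr7:30626065-30626364, *Ndufa6* at chr15:82354242-82354541 and *Atp5o* at chr16:91931581-91931880, all on the minus strand. Capitals mark motifs in either orientation: the NRF-1 consensus with any base at its centre, the ETS motif CCGGAAG bound by GABPA (in reverse CTTCCGG), the YY1 motif AAGATGGC, the estrogen-related receptor motif AAGGTCA and the CCAAT box (in reverse ATTGG).
Cox6b2: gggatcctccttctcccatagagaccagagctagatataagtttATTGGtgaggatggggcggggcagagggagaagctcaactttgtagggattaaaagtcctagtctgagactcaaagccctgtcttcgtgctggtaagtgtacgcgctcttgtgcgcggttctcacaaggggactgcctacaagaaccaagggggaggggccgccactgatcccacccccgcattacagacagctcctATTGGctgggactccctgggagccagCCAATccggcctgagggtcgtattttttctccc
Cox6b1: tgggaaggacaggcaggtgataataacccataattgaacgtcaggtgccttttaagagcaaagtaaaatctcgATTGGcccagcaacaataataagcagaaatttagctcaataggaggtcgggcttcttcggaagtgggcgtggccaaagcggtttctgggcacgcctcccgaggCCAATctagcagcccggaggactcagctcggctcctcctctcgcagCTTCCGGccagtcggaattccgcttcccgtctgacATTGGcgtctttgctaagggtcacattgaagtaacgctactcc
Ndufa6: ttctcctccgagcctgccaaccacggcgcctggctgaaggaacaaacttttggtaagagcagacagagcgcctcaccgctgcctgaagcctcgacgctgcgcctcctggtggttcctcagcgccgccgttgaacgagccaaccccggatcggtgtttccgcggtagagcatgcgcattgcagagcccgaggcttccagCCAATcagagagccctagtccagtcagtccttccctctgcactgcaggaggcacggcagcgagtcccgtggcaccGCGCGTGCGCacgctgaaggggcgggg
Atp5o: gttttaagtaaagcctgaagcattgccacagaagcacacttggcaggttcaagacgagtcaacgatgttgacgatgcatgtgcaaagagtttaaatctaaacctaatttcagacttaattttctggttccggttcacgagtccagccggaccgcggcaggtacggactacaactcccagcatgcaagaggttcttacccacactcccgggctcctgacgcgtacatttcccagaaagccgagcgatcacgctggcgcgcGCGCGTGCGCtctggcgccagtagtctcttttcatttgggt

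The *Cox6b2* window held 3 CCAAT boxes and none of the other motifs. *Cox6b1* held 3 CCAAT boxes and 1 ETS motif. *Ndufa6* held 1 NRF-1 motif, just after the start, and 1 CCAAT box, and *Atp5o* held 1 NRF-1 motif. None of the marked motifs overlapped. RefSeq windows were found for 73 of the 89 genes, 78 windows in all. The NRF-1 motif was in 18 of these 78 windows (23.1%) and in 4.6% of the 32851 windows of all genes. The ETS motif was in 19 (24.4%, against 8.86% of all), the YY1 motif in 10 (12.8%, against 2.75%), the estrogen-related receptor motif in 6 (7.69%, against 4.72%) and the CCAAT box in 32 (41%, against 37.4%). A matched motif is a run of letters and does not show that the factor binds.

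As a group, the respiratory chain genes differed little between the mice. Values are log2 intensities, so a difference of 1 is a doubling of signal. A gene was called when limma gave an absolute log2 fold change above 0.5 and a p below 0.25 after Benjamini-Hochberg adjustment across the 22180 genes, the limits taken from the methods. A second count took the adjusted p alone, at any fold. In *db/db* against *db/m* mice 1 of 89 genes was called higher (1.12%, against 1.31% of all genes). In treated against untreated *db/db* mice none was, against 0.577% of all genes. In treated *db/db* against *db/m* mice 3 were (3.37%, against 1.93% of all genes). None was called lower in any comparison, against 0.987%, 0.428% and 1.96% of all genes in the same order. The 95% interval of the difference lay wholly within 0.5 of 0 for 78 genes (87.6%) in the first comparison, 74 (83.1%) in the second and 72 (80.9%) in the third, against 75%, 76.6% and 72.4% of all genes. The median standard deviation between mice of a group was 0.12 for these genes and 0.15 for all genes. With 3 mice against 3, an exact permutation test cannot go below p = 0.1.

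The 9 arrays were alike, with correlations of 0.984 to 0.994 and medians of 3.36 to 3.45. Of the 89 genes, 85 had a mean above 3.39, the median of all probe sets, as did 62.9% of all genes. The 4 below it were *Ndufs5*, *Cox7b2*, *Cox8b* and *Cox8c*. Markers of the renal tubule were present, with a summed log2 signal of 14.68 to 14.86 for 12 proximal tubule genes. The sum over 9 skeletal muscle markers was 6.44 to 6.64, and the brown fat marker *Ucp1* lay between 2.43 and 3.04. In whole tissue, fewer cells of a type cannot be told apart from less RNA per cell. The comparisons share mice, so they are not independent of each other.

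**Figure D1:**
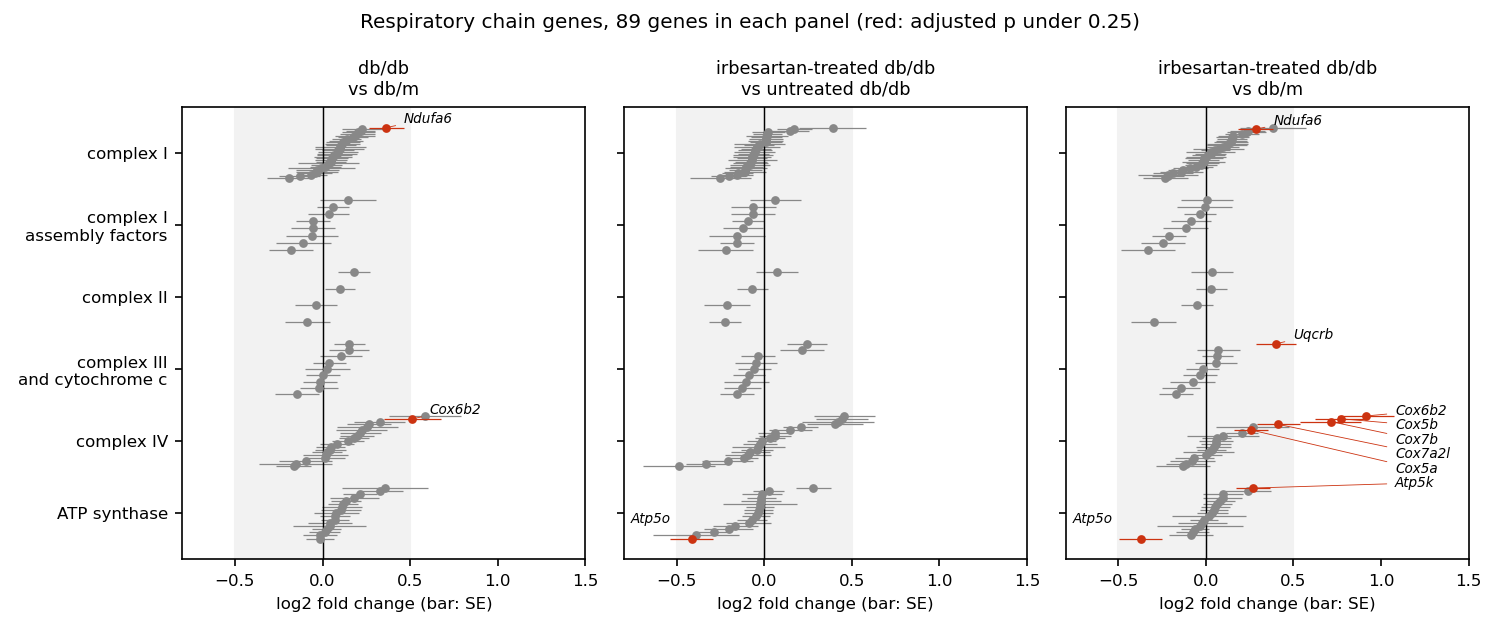
Log2 fold change of each of the 89 genes (points) with its standard error (bars) in the 3 comparisons, grouped by complex; red points passed adjusted p 0.25, and the grey band spans 0.5 on either side of 0. Most points lie inside the band, and those farthest to the right are complex IV genes in treated *db/db* against *db/m* mice.

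Of the complex I subunits only *Ndufa6* passed the adjusted p limit in any comparison. *Ndufa6* (chr15:82350139-82354291) encodes an accessory subunit of the matrix arm that binds the mitochondrial acyl carrier protein. Its signal was 9.02, 9.12 and 8.86 in *db/m* mice, 9.39, 9.28 and 9.42 in *db/db* mice, and 9.18, 9.30 and 9.37 in treated mice. All 6 *db/db* arrays lay above all 3 *db/m* arrays. The difference was 0.36 (SE 0.10, adjusted p = 0.138) in untreated and 0.28 (adjusted p = 0.174) in treated *db/db* mice against *db/m* mice, below the fold limit in both. The first adjusted p was above 0.25 without *db/db* replicate 1 (0.296) or 3 (0.295). The second was above it without *db/m* replicate 1 or 3 (0.263 and 0.304) or treated replicate 2 or 3 (0.321 and 0.428). Treated and untreated *db/db* mice differed by -0.08 (adjusted p = 0.793).

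The 32 complex I subunits, *Ndufa6* included, spread around a small median: 0.09 in *db/db* against *db/m* mice, with 25 above 0, -0.06 with irbesartan in *db/db* mice, with 10 above 0, and 0.03 in treated *db/db* against *db/m* mice, with 19 above 0. In *db/db* mice the lowest was *Ndufv3*, a subunit next to the NADH-binding flavoprotein, at -0.19 (adjusted p = 0.579). *Ndufs5*, an accessory subunit on the intermembrane side, had the highest difference with irbesartan, 0.39 (adjusted p = 0.437), but its signal of 2.34 to 3.17 lay at the floor of the array. *Ndufa11*, in the membrane arm, had the lowest with irbesartan, -0.25 (adjusted p = 0.595). Its *db/m* arrays alone ran from 9.10 to 9.91. The measured nuclear genes of the catalytic core, *Ndufs1*, *Ndufs3*, *Ndufs7*, *Ndufs8*, *Ndufv1* and *Ndufv2*, were named after their values were seen, and none passed a limit. They differed by -0.03 to 0.09 in *db/db* against *db/m* mice, by -0.15 to 0.14 with irbesartan and by -0.14 to 0.23 in treated *db/db* against *db/m* mice. The treated arrays of *Ndufv1* lay below both other groups (-0.15 with irbesartan, adjusted p = 0.508), and those of *Ndufv2* lay above the *db/m* arrays (0.23, SE 0.11, adjusted p = 0.321).

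None of the 8 complex I assembly factors passed either limit. Their median was -0.05, -0.11 and -0.10 in the 3 comparisons, in the order above. The extremes in *db/db* mice were *Ndufaf2* at 0.15 (adjusted p = 0.743) and *Ndufaf6* at -0.18 (adjusted p = 0.588). *Ndufaf8* was lowest in treated mice, -0.33 against *db/m* mice (adjusted p = 0.315) and -0.22 against untreated *db/db* mice, while *Ndufaf4* had the highest values there, 0.01 and 0.06. The *db/m* arrays of *Ndufaf8* read 6.01, 6.26 and 6.69, a wider range than its treated arrays at 6.05, 5.95 and 5.98.

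No subunit of succinate dehydrogenase passed a limit. *Sdhb*, the iron-sulfur subunit, read 8.33, 8.36 and 8.87 in *db/m* mice, 8.41, 8.43 and 8.47 in *db/db* mice and 8.22, 8.23 and 8.21 in treated mice. The 3 treated arrays lay below all others. Its differences were -0.30 (SE 0.13, adjusted p = 0.277) for treated against *db/m* mice and -0.21 (adjusted p = 0.544) against untreated *db/db* mice. *Sdhd*, one of the membrane anchors, read 9.73, 9.77 and 9.64 in *db/m*, 9.99, 9.84 and 9.85 in *db/db* and 9.70, 9.56 and 9.73 in treated mice. The *db/db* arrays were above both other groups, with differences of 0.18 (adjusted p = 0.442) against *db/m* mice and -0.23 (SE 0.09, adjusted p = 0.36) with irbesartan. *Sdha*, the flavoprotein, differed by 0.10 and -0.07 in the same comparisons. The other anchor, *Sdhc*, differed by -0.04 and 0.07.

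*Uqcrb*, a small nuclear subunit of complex III annotated at chr13:66900576-66905350, was the only one of these 9 genes to pass the adjusted p limit. It read 10.74, 10.86 and 10.99 in *db/m* mice, 11.15, 10.80 and 11.11 in *db/db* mice and 11.30, 11.18 and 11.30 in treated mice. The treated arrays lay above all others, while *db/db* replicate 2 fell among the *db/m* arrays. The difference was 0.40 (SE 0.11, adjusted p = 0.094) for treated *db/db* against *db/m* mice and 0.24 (adjusted p = 0.42) with irbesartan in *db/db* mice. The first adjusted p was 0.257 without treated replicate 1 and 0.264 without treated replicate 3. *Uqcrc2*, one of the core proteins, differed by 0.15 (adjusted p = 0.502) between *db/db* and *db/m* mice. *Uqcrc1*, the other core protein, was lowest of the group with irbesartan, -0.15 against *db/db* mice (adjusted p = 0.558) and -0.17 against *db/m* mice. *Cyc1*, which encodes cytochrome c1, differed by 0.00, -0.04 and -0.03.

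*Cycs*, the somatic cytochrome c gene, was read by 5 probe sets that gave different answers. The one kept by its mean level differed by -0.15 (adjusted p = 0.667) in *db/db* mice, 0.22 (adjusted p = 0.51) with irbesartan and 0.07 in treated against *db/m* mice. A second one, 17358271, read 7.57, 7.96 and 8.29 in *db/m* mice, 8.17, 7.26 and 7.80 in *db/db* mice and 9.10, 8.58 and 9.28 in treated mice. All treated arrays lay above all others, by 1.24 (SE 0.27, adjusted p = 0.251) against untreated *db/db* mice and 1.05 (adjusted p = 0.122) against *db/m* mice, where adjusted p is over all 41345 probe sets. The other probe sets differed by -0.03 to -0.13 between treated and *db/m* mice, and 2 of them held identical values on every array. Probe set 17358271 is numbered between probe sets of *Apba1* and *Dock8* on chromosome 19, whereas *Cycs* is annotated at chr6:50562563-50566569. The kept probe set, 17445624, is also numbered away from the gene, between *1700003C15Rik* and *Speer4e* on chromosome 5. Only 17466723, with a mean of 4.35, is numbered among mostly chromosome 6 genes.

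The differences from *db/m* mice that passed both limits were all in complex IV, cytochrome c oxidase. *Cox6b2* is known as the testis form of subunit VIb, which faces the intermembrane space, and is annotated at chr7:4751792-4753094. It read 5.75, 5.80 and 5.88 in *db/m* mice, 6.10, 6.55 and 6.33 in *db/db* mice and 6.68, 7.08 and 6.43 in treated mice. Every *db/db* array, treated or not, lay above every *db/m* array, and the treated and untreated arrays overlapped. The log2 difference from *db/m* mice was 0.51 (SE 0.16, 95% interval 0.16 to 0.87, adjusted p = 0.194) in untreated and 0.92 (SE 0.16, adjusted p = 0.0139) in treated *db/db* mice. Irbesartan-treated and untreated *db/db* mice differed by 0.40 (SE 0.16, adjusted p = 0.353). Its difference in treated mice passed both limits under every alternative tried. That in untreated mice did not: the adjusted p rose to 0.381 with the unmoderated ANOVA of the methods and to 0.36 when every probe set was tested, and leaving out *db/db* replicate 2 gave 0.40 (adjusted p = 0.382). It was also above 0.25 without any 1 of the *db/m* replicates (0.327, 0.264 and 0.259 in order), without *db/db* replicate 3 (0.328) and without treated replicate 1 (0.259). *Cox6b1*, the common form, differed by 0.01, -0.08 and -0.07 in the 3 comparisons, with an SE of 0.11.

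*Cox5b*, a zinc-binding subunit on the matrix side, was called higher in treated mice. Its kept probe set read 9.53, 9.81 and 9.73 in *db/m* mice, 10.22, 9.70 and 10.13 in *db/db* mice and 10.55, 10.26 and 10.57 in treated mice. The treated arrays lay above all others, and *db/db* replicate 2 lay among the *db/m* arrays. The difference was 0.77 (SE 0.15, adjusted p = 0.0198) for treated *db/db* against *db/m* mice, 0.45 (adjusted p = 0.279) with irbesartan in *db/db* mice and 0.32 (adjusted p = 0.384) in untreated *db/db* mice.

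*Cox7b*, a small subunit that spans the membrane, had the same order of group means as *Cox5b*. It read 9.93, 10.04 and 10.02 in *db/m* mice, 10.45, 9.81 and 10.50 in *db/db* mice and 10.76, 10.46 and 10.91 in treated mice. Treated arrays were all above *db/m* arrays, and *db/db* replicate 2 was the lowest array of all. The difference was 0.71 (SE 0.17, adjusted p = 0.0542) for treated *db/db* against *db/m* mice and 0.46 (adjusted p = 0.34) with irbesartan in *db/db* mice. After removal of group means, the correlation over the 9 arrays was 0.932 between *Cox5b* and *Cox7b*, 0.909 between *Cox5b* and *Uqcrb* and 0.868 between *Cox7b* and *Uqcrb*. That of *Cox6b2* with *Cox5b* was -0.737. These are descriptions over arrays that share mice, processing and normalization.

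The signal of *Cox5b*, *Cox7b* and *Uqcrb* came from probe sets whose numbers do not sit among those of neighbouring genes. The array numbers probe sets along the chromosomes: of 22751 single-symbol probe sets whose 10 neighbours on each side were mostly (80% or more) of 1 chromosome, 22638 (99.5%) named a gene of that chromosome. The kept *Cox5b* probe set, 17290965, is numbered between *Zkscan4* and *Zfp389* on chromosome 13, where RefSeq places the pseudogene *Cox5b-ps* (chr13:21500935-21501452), while *Cox5b* itself is at chr1:36691487-36693388. The *Cox7b* and *Uqcrb* probe sets had neighbours of mixed chromosomes. Among all 89 kept probe sets, 82 had neighbours of their own chromosome, 4 (*Cox5b*, *Atp5h*, *Atp5g2* and *Cycs*) of another and 3 (*Ndufa11*, *Uqcrb* and *Cox7b*) mixed ones.

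A second *Cox5b* probe set, numbered among the genes of its own chromosome, had a mean of 4.04 and differed by -0.05 (SE 0.13, adjusted p = 0.896) between treated *db/db* and *db/m* mice, the opposite sign. The equivalent *Cox7b* probe set had a mean of 4.31 and differed by 0.18 (SE 0.14, adjusted p = 0.569). *Uqcrb* had no such second probe set. *Cox6b2* was the 1 gene called in this comparison with probe sets numbered on the own chromosome. The same was true without the 7 genes whose kept probe sets were numbered among another chromosome or mixed ones. Probe coordinates were not used here, so where these probe sets hybridize was not tested.

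**Figure D2:**
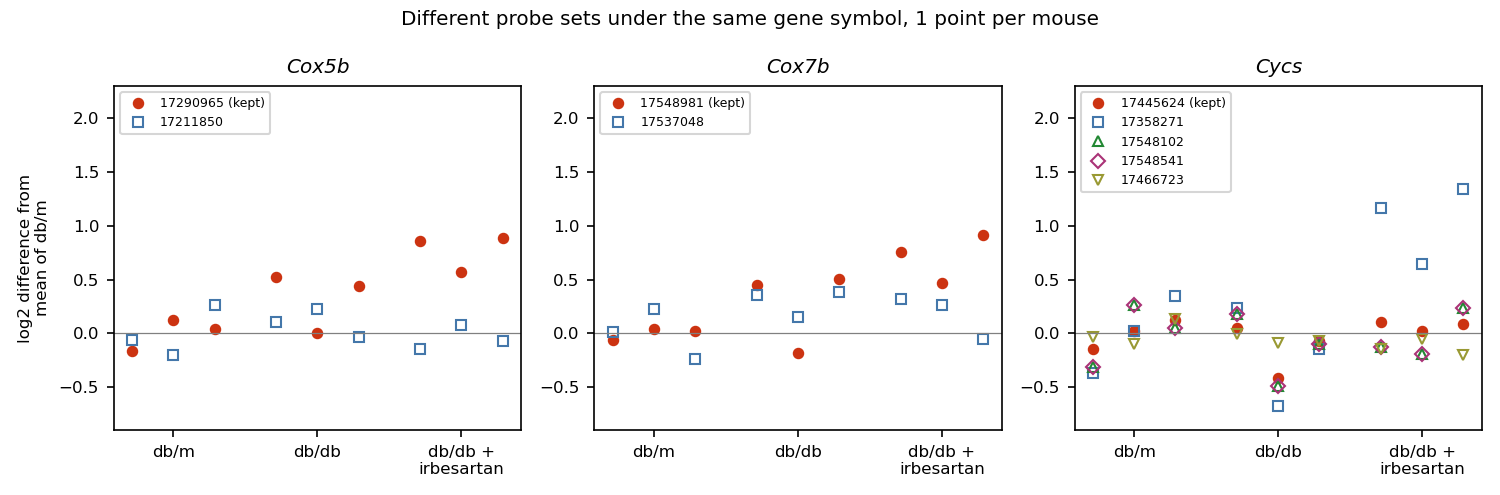
Signal of each probe set of *Cox5b*, *Cox7b* and *Cycs* by mouse, as the log2 difference from its own mean in *db/m* mice; filled points are the kept probe sets, open points the others. The kept *Cox5b* and *Cox7b* probe sets and *Cycs* probe set 17358271 are high in treated mice and the others are not.

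*Cox5a* and *Cox7a2l* passed the adjusted p limit below the fold limit. *Cox5a*, a matrix-facing subunit, read 7.85, 7.86 and 8.03 in *db/m* mice and 8.23, 8.11 and 8.17 in treated mice, a difference of 0.26 (adjusted p = 0.204). *Cox7a2l* takes part in joining complex III to complex IV in supercomplexes. It read 5.65, 5.92 and 6.12 in *db/m* mice and 6.27, 6.45 and 6.20 in treated mice, a difference of 0.41 (adjusted p = 0.108). In both, the untreated *db/db* arrays overlapped the *db/m* arrays. The adjusted p of *Cox5a* was above 0.25 after centring of each array on its median (0.301) and without *db/m* replicate 1 or 2 (0.366 and 0.309) or any 1 of the treated replicates (0.448, 0.278 and 0.394). That of *Cox7a2l* was above it without *db/m* replicate 1 (0.259) or treated replicate 2 (0.282).

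Of the 8 forms used mainly in other tissues, *Cox6b2* was the only one called. It was called in untreated and in treated *db/db* against *db/m* mice, where 1.31% and 1.93% of all genes were called higher. *Cox6a2*, the heart and muscle form of subunit VIa, read 5.38, 4.74 and 4.98 in *db/m* mice, 5.99, 5.73 and 5.14 in *db/db* mice and 5.04, 5.10 and 5.25 in treated mice. Replicates 1 and 2 of *db/db* were high and replicate 3 was not, so that its 0.59 (SE 0.21) missed the limit by little (adjusted p = 0.251) and its -0.49 with irbesartan had an adjusted p of 0.377. *Cox6a1*, the common form, differed by 0.05 and -0.01. *Cox7a1*, the muscle form of subunit VIIa, differed by 0.22 (adjusted p = 0.557) in *db/db* mice, and *Cox7a2* by 0.15 (adjusted p = 0.542). *Cox4i2*, a form induced by low oxygen and used in lung, differed by 0.02, and *Cox4i1*, its common partner, by 0.18 (adjusted p = 0.397), with all 3 *db/db* arrays above the *db/m* arrays. *Ndufa4l2*, another gene induced by low oxygen, differed by -0.10, and *Ndufa4*, now counted as a complex IV subunit, by 0.04. *Cox8a* differed by 0.02. The muscle form *Cox8b* and the testis forms *Cox7b2* and *Cox8c* stayed between 1.25 and 3.16, at the floor of the array.

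**Figure D3:**
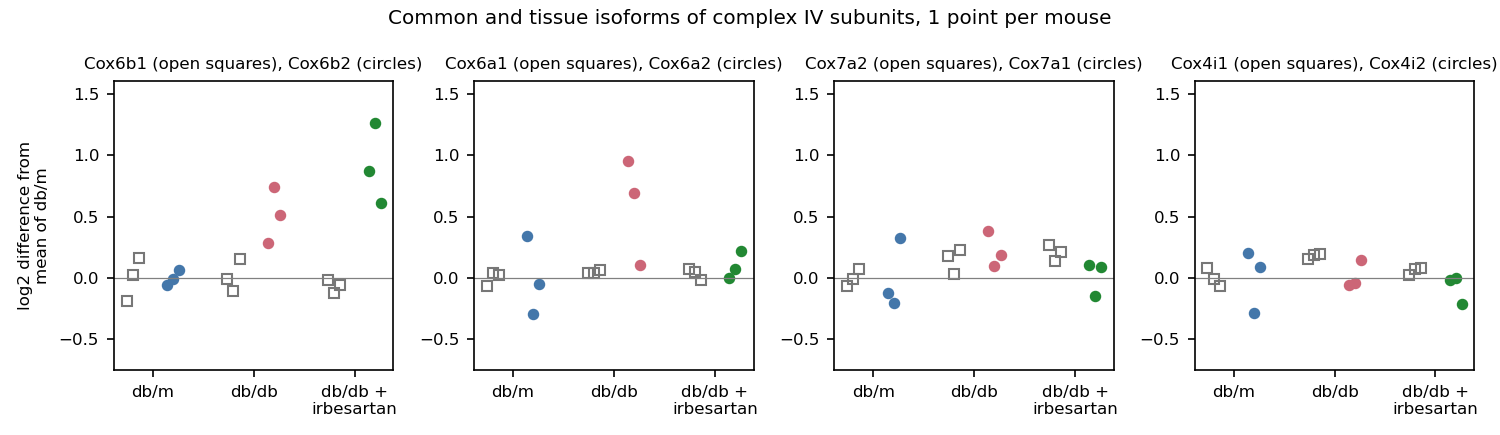
Common (open squares) and tissue (circles) forms of 4 complex IV subunits by mouse, as the log2 difference from the mean of the same gene in *db/m* mice. *Cox6b2* is above *db/m* in all 6 *db/db* arrays while *Cox6b1* stays near 0, and *Cox6a2* is high in 2 untreated *db/db* arrays.

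*Atp5o*, the stator subunit that ties the catalytic head to the peripheral stalk (chr16:91925223-91931630), was the only one of the 89 genes to fall past an adjusted p limit with irbesartan. It read 5.17, 5.29 and 5.12 in *db/m* mice, 5.16, 5.11 and 5.43 in *db/db* mice and 4.82, 5.01 and 4.62 in treated mice. The treated arrays lay below all 6 others, which overlapped. The difference was -0.41 (SE 0.12, adjusted p = 0.238) against untreated *db/db* mice and -0.37 (adjusted p = 0.146) against *db/m* mice, below the fold limit in both. The first was close to its limit. Leaving out any 1 of the untreated or treated *db/db* replicates gave an adjusted p of 0.269 to 0.544. Leaving out *db/m* replicate 1 or 2 gave 0.262 and 0.271. The unmoderated ANOVA of the methods gave 0.332, as did testing every probe set. A second quantile normalization gave 0.279, and replicate number as a block gave 0.324. The second was above 0.25 without *db/m* replicate 2 (0.261) and without treated replicate 1 (0.303) or 3 (0.414).

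*Atp5k*, subunit e of the membrane sector, differed the other way. It read 8.01, 7.91 and 8.03 in *db/m* mice, 8.14, 7.84 and 7.94 in *db/db* mice and 8.28, 8.21 and 8.26 in treated mice. The treated arrays lay above all others, by 0.27 (SE 0.10, adjusted p = 0.191) against *db/m* mice and 0.28 (adjusted p = 0.306) against untreated *db/db* mice. The first adjusted p was 0.399, 0.286 and 0.392 without treated replicate 1, 2 or 3, 0.269 and 0.308 without *db/m* replicate 1 or 2, and 0.287 after centring of each array on its median.

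The 3 genes for the c subunit of the rotor ring, which encode the same mature protein, did not pass. *Atp5g1* differed by 0.36 (SE 0.24, adjusted p = 0.579) in *db/db* mice, and its *db/m* arrays alone ran from 3.49 to 4.43. *Atp5g3* differed by 0.21 (adjusted p = 0.373) in *db/db* mice and -0.29 (SE 0.10, adjusted p = 0.276) with irbesartan, with the *db/db* arrays at 9.25, 9.33 and 9.40 above the *db/m* arrays at 8.97, 9.24 and 9.13 and the treated arrays at 9.02, 9.06 and 9.04. *Atp5g2* differed by 0.02 and -0.03. *Atp5md*, a small subunit of the membrane sector, was the lowest in *db/db* mice at -0.01. The catalytic subunits *Atp5a1* and *Atp5b*, named after their values were seen, differed by 0.12 and 0.07 in *db/db* mice and by -0.03 and -0.02 with irbesartan, with an SE of 0.08 in each.

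**Figure D4:**
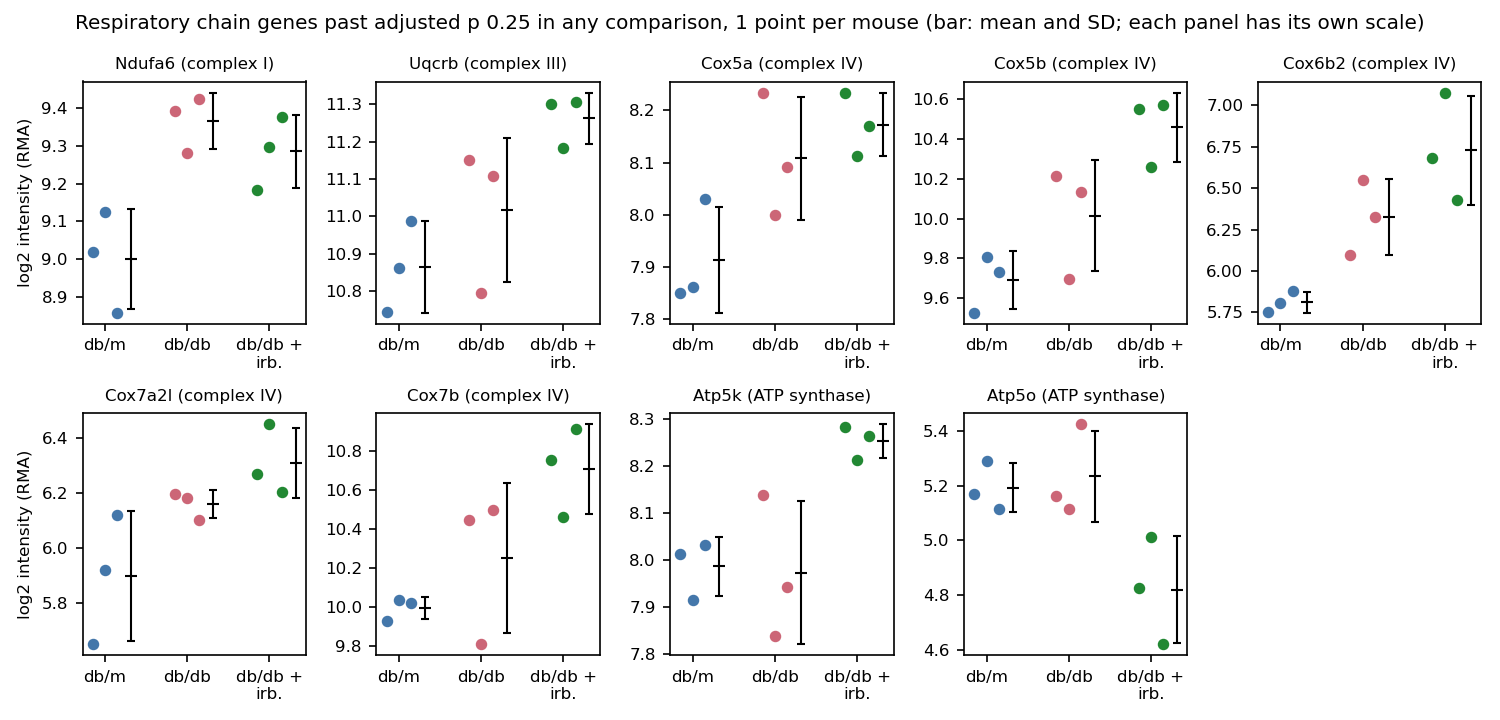
Log2 signal by mouse of the 9 genes that passed adjusted p 0.25 in any comparison, each on its own scale, with the mean and standard deviation of each group of 3. Treated *db/db* mice lie wholly above *db/m* mice in 8 genes and wholly below in *Atp5o*.

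Between *db/db* and *db/m* mice the median difference over the 89 genes was 0.07, against 0.01 for all genes and 0.03 for genes above the array median. Of the 89, 67 (75.3%) lay above 0, as did 51.2% of all genes. By median, complex IV was at 0.15, complex I at 0.09, ATP synthase at 0.08, complex II and complex III at 0.03 and the assembly factors at -0.05. The 1 gene called higher was *Cox6b2* (1.12% of the 89), against 1.31% of all genes. None was called lower, against 0.987% of all genes. At any fold, 2 passed as higher (*Cox6b2* and *Ndufa6*) and none as lower, with 3.58% and 2.78% of all genes passing. In 15 genes (16.9%) every *db/db* array lay above every *db/m* array, and in none below. The shares of all genes were 9.18% and 7.62%. At an unadjusted p under 0.05 there were 6 genes (6.74%), against 13% of all genes. The calls differed with the mouse left out: without *db/m* replicate 1 or *db/db* replicate 3 the 1 gene called was *Cox6a2*, and without *db/m* replicate 2 or 3, *db/db* replicate 2 or treated replicate 1 no gene was called. At any fold, 5 genes passed without *db/m* replicate 3, 4 without *db/db* replicate 2, and 1 without *db/m* replicate 2, *db/db* replicate 1 or 3, or treated replicate 1.

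The shift was carried unequally by the mice. The mean deviation of the 89 genes from their 9-array mean was -0.10, -0.06 and 0.03 in *db/m* mice, 0.07, 0.00 and 0.05 in *db/db* mice, and 0.01, -0.02 and 0.02 in treated mice. The third *db/m* mouse lay among the *db/db* mice, and the groups overlapped. *db/m* replicate 1 was the lowest array for 28 of the 89 genes, against 14.3% of all genes, and *db/m* replicate 3 the highest for 28 and the lowest for 16. For all genes *db/m* replicate 3 was highest in 19% and lowest in 16.7%. Markers of the thick ascending limb moved with this comparison: the summed log2 signal of 5 genes was 12.37 to 12.50 in *db/m*, 12.55 to 12.75 in *db/db* and 12.62 to 12.73 in treated mice. The same held for the sum of 3 distal tubule genes (10.79 to 11.07, then 11.17 to 11.35 and 11.19 to 11.34). It held for the sum of 9 collecting duct genes (11.47 to 11.69, then 11.71 to 11.85 and 11.79 to 11.86). Of these 9, 7 lay above 0 in untreated and 6 in treated *db/db* against *db/m* mice. It also held for the sum of 5 podocyte genes (9.40 to 9.59, then 9.63 to 9.74 and 9.62 to 9.73). Of these, 5 lay above 0 in untreated and 4 in treated mice. The 12 proximal tubule genes overlapped between *db/m* (14.68 to 14.81) and *db/db* mice (14.73 to 14.83). Their sum in treated mice was 14.825 to 14.86, above all *db/m* arrays, of which the highest read 14.806. Of the 12 genes, 7 had a difference above 0 in treated against *db/m* mice, with a median of 0.04 and a range of -0.36 to 0.44. The summed signal of 8 macrophage genes was 8.72 to 8.95 in *db/db*, 9.02 to 9.14 in *db/m* and 8.40 to 9.53 in treated mice. That of 5 brown fat genes was 9.58 to 9.68 in *db/db* and 9.31 to 9.57 in *db/m* mice. Nearly all of it was *Ppargc1a*, and the other members lay near the floor of the array. Only 1 of the 5 (*Ppargc1a*) had a difference above 0. The sums of 7 fat genes, 6 endothelial genes and 9 skeletal muscle genes overlapped between these groups. The part of cell composition in these differences was not tested.

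**Figure D5:**
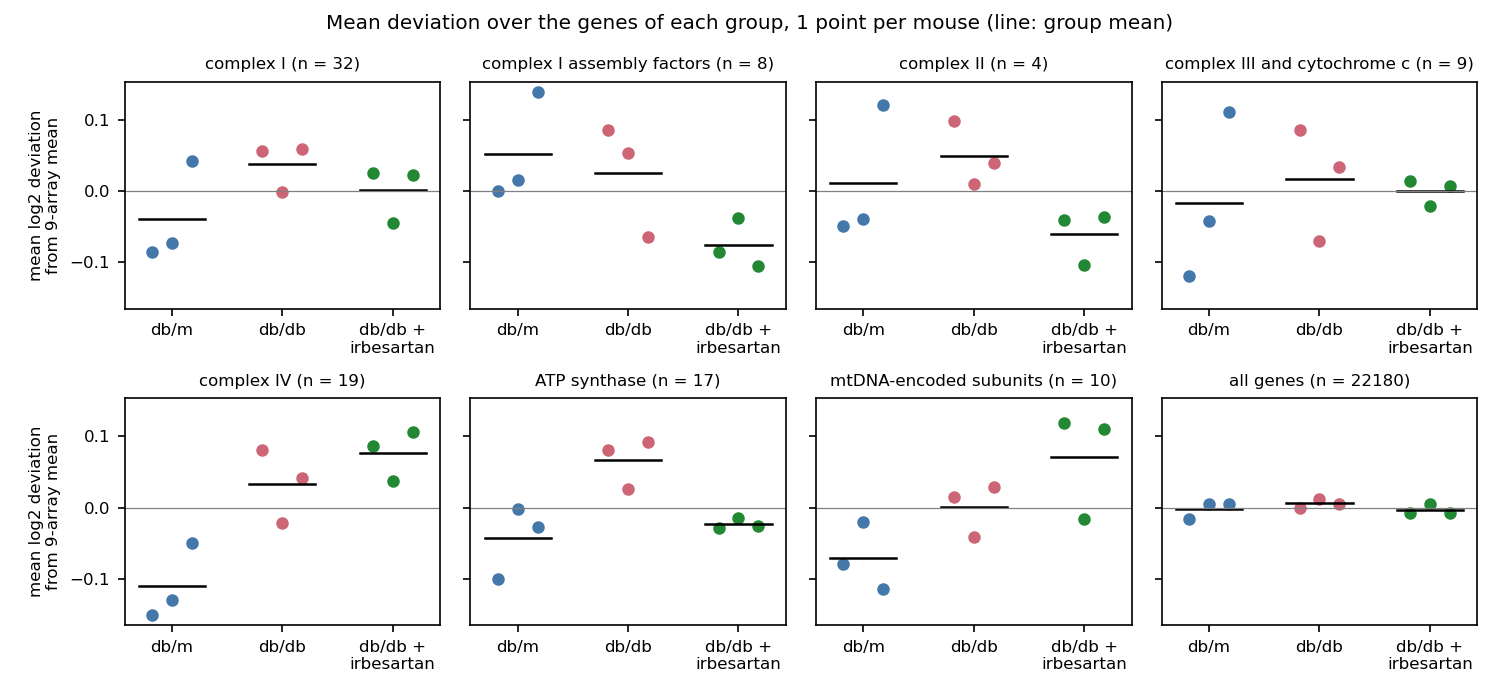
Mean log2 deviation of the genes of each complex from their mean over 9 arrays, 1 point per mouse, with the group mean as a line; the last panels show the mtDNA-encoded genes and all 22180 genes. The group mean of the *db/m* mice lies farthest below 0 in complex IV, and the untreated *db/db* mice have the highest mean in complexes I, II and III and in the ATP synthase.

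The median over the 89 genes was -0.05 in treated against untreated *db/db* mice, against -0.01 for all genes, and 25 of the 89 (28.1%) lay above 0, as did 46.3% of all genes. No gene was called in either direction, with 0.577% of all genes called higher and 0.428% lower. At an unadjusted p under 0.05 there were 9 genes (10.1%, against 12.2% of all genes). At any fold none passed as higher and 1 as lower (*Atp5o*), with 1.36% and 1.53% of all genes passing. All 3 treated arrays lay below all 3 untreated arrays in 20 genes (22.5%, against 13.1% of all genes) and above in 5 (5.62%, against 8.71%). Of the 20, 9 were complex I subunits. At any fold 7 genes passed without *db/m* replicate 3, namely *Atp5g3*, *Atp5k*, *Atp5o*, *Cox5b*, *Cox7c*, *Ndufa11* and *Sdhb*. Without *db/db* replicate 3 the 1 gene that passed was *Cox6a2* and without treated replicate 2 it was *Ndufs5*, both then called, and without any 1 of the other 6 arrays none passed. When each array was centred on its median, the median of the 89 moved to -0.11 and that of all genes to -0.07. The gap between them was -0.04 in both scalings.

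In treated *db/db* against *db/m* mice the median of the 89 genes was 0.03, against 0.00 for all genes, with 51 (57.3%) above 0. With arrays centred on their medians 39 lay above 0, so no direction is given for the whole set. The calls were 3 genes higher (*Cox6b2*, *Cox5b* and *Cox7b*, 3.37% of the 89, against 1.93% of all genes) and none lower (1.96% of all genes). At any fold 8 passed as higher (8.99%), namely these and *Uqcrb*, *Cox7a2l*, *Ndufa6*, *Atp5k* and *Cox5a*, and 1 as lower, *Atp5o* (1.12%). The shares of all genes were 6.45% and 7.35%. After centring the split was 6 higher and 3 lower, and after a second quantile normalization it was 8 higher and 3 lower, with *Ndufa10* and *Sdhb* added as lower in both. Treated arrays lay wholly above *db/m* arrays in 16 genes (18%, against 10.8% of all genes) and wholly below in 7 (7.87%, against 12.7%). Without treated replicate 1 or 3 the total at any fold was 5 and 4, in place of 9. Complex IV held 5 of the 8 higher genes, with a median of 0.06 over its 19 genes. With probe sets of the own chromosome *Cox5b* and *Cox7b* did not pass, at -0.05 and 0.18, and *Uqcrb* had no such probe set. The higher genes were then *Cox6b2*, *Cox7a2l*, *Cox5a*, *Ndufa6* and *Atp5k*.

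The genes of mitochondrial DNA, read here by 10 single-symbol genes, differed by a median of 0.08 in *db/db* mice (9 of 10 above 0), 0.03 with irbesartan and 0.12 in treated *db/db* against *db/m* mice (10 of 10 above 0). These transcripts are cut from shared precursors, so they are not independent. None was called, and *ND3*, a complex I core subunit, passed at any fold in the last comparison at 0.26 (SE 0.09, adjusted p = 0.173). Of all genes, 6.45% passed as higher there. *ND3* read 12.03, 12.13 and 11.93 in *db/m* mice and 12.31, 12.25 and 12.30 in treated mice. *ND6* read 3.06 to 3.82, near the floor of the array. It was the 1 gene below 0 in *db/db* mice (-0.11) and the highest in the other comparisons (0.40 and 0.29). *ND4L* was read by probe set 17221871, numbered apart from the others (17532603 to 17532649), and its locus was not tested.

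Regulators of mitochondrial biogenesis gave 1 call among 17 genes, in treated *db/db* against *db/m* mice, where 1.93% of all genes were called higher. *Ppara*, a fatty acid sensor that induces oxidation genes, read 7.64, 7.81 and 7.65 in *db/m* mice, 8.29, 7.98 and 7.70 in *db/db* mice and 8.16, 8.30 and 8.45 in treated mice, 0.60 above *db/m* (SE 0.14, adjusted p = 0.0461). *Ppargc1a*, the coactivator that drives biogenesis, differed by 0.19 in *db/db* mice (SE 0.10, adjusted p = 0.442) and -0.07 with irbesartan. *Esrra*, its partner receptor, differed by 0.08 and -0.04, *Nrf1* by 0.09 and 0.02, and *Tfam*, which packs mitochondrial DNA, by 0.17 and -0.09. None of these passed. Of the 17, 2 passed at any fold as higher and 2 as lower in treated against *db/m* mice, against 6.45% and 7.35% of all genes. None passed in the other comparisons. Among the 13 measured genes of the tricarboxylic acid cycle none was called. At any fold 1 passed, higher, in *db/db* mice, against 3.58% of all genes. Among 18 uncoupling, carrier and ubiquinone genes none was called. At any fold 1 passed as lower in treated against *db/m* mice, against 7.35% of all genes.

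Assembly factors outside the set and mitochondrial ribosomal genes had medians below 0 with irbesartan, as did all genes (-0.01, with 46.3% above 0, or -0.07 after centring of each array on its median). Of 35 further assembly factors none was called. Their median was 0.03 in *db/db* mice, -0.11 with irbesartan (6 of 35 above 0) and -0.08 in treated against *db/m* mice, where 5 passed as lower and 1 as higher at any fold, against 7.35% and 6.45% of all genes. In untreated *db/db* mice 2 passed as lower, against 2.78% of all genes. Of 71 mitochondrial ribosomal genes 1 was called, *Mrpl12*, a large subunit protein, at -0.53 (SE 0.14, adjusted p = 0.0683) in treated against *db/m* mice, where 9 passed as lower and 1 as higher at any fold, set against the same shares of all genes. The median of the 71 was -0.01 in *db/db* mice, -0.10 with irbesartan (15 of 71 above 0) and -0.11 in treated against *db/m* mice, where that of all genes was 0.00.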

How the data were processed

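Total RNA was labelled with biotin and hybridized to Affymetrix arrays, named differently in the labels and the methods. The deposited values are log2 intensities per probe set, which the authors obtained by RMA (background correction, quantile normalization and summary) in Affymetrix Expression Console, version not given in the sources used here. They were used as deposited. Probe sets were named from the platform annotation: of 41345, 23521 had 1 symbol, 1820 several (left out, 10 of them with a respiratory chain symbol) and 16004 none here. Each gene was represented by its probe set of highest mean, and 10 of the 89 genes had several. Probe sets of pseudogene symbols (2) were dropped. Signal over background and the number of arrays, not read depth, limit precision.

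limma 3.58.1 in R 4.3.3 fitted 3 group means over the 9 arrays (6 residual and 5.05 prior degrees of freedom), with Benjamini-Hochberg adjustment over 22180 genes. Each array is a separate mouse, so p-values measure the spread between mice. The methods name one-way ANOVA, run here as an alternative beside other normalizations, filters, probe set rules, array weights, a replicate block and leaving out each array. The methods print the fold limit as below 0.5, read here as above 0.5. Nothing in the sources used here says how mice were matched across groups, and the deviations of same-numbered arrays correlated by -0.077 to 0.042, so replicate numbers were not used for pairing. The code was tested on simulated data. Sequences and coordinates are from RefSeq, GRCm38.p6, and figures were drawn with matplotlib 3.10.9.

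Genes were named where they passed a limit, had the largest or smallest difference of their complex, were tissue or common isoforms, or belonged to complex II or cytochrome c. Genes of the other mitochondrial lists were named where called, along with *Ppargc1a*, *Esrra*, *Nrf1* and *Tfam*. Those of mitochondrial DNA were named after their values were seen. Called genes of the cell marker lists were not named. The genes and lists were chosen with earlier results of these data known.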

Additional observations from a re-analysis of the deposited data

Results flagged for a closer look

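A probe set outside the gene-level comparisons was higher in every treated array than in every control array: *Cycs* probe set 17358271 had a log2 difference of 1.05 between treated *db/db* and *db/m* mice (SE 0.27, limma adjusted p = 0.122 over all probe sets). It is 1 of 4 *Cycs* probe sets set aside because another had a higher mean. The cause was not tested.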

How the results depend on the processing

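*Cox6b2* kept its direction and passed both limits in treated *db/db* against *db/m* mice under every alternative run. In that comparison 3 genes were called, and 1 with the mean of a gene's probe sets. It was also 1 with probe sets numbered on the gene's own chromosome. The same count came without the 7 genes whose kept probe sets were numbered among another chromosome or mixed ones. The last 2 alternatives were chosen after seeing the data, and where these probe sets hybridize was not tested. *Cox5b* differed by -0.047 (log2, SE 0.13, limma adjusted p = 0.896) with the probe set numbered on its own chromosome. That probe set had a low mean signal of 4.04, and its difference lay within 1 SE of 0. At any fold 9 genes passed there. The number was 14 with the unmoderated ANOVA of the methods, 14 with array weights, 16 with a variance trend, 17 with a filter at the median level, and 4 to 12 with 1 array left out.

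In *db/db* against *db/m* mice the 1 call became 0 with the ANOVA, array weights, every probe set tested, a second quantile normalization, or adjusted p under 0.05 with or without the fold limit. It became 2 with a variance trend, the filter or median centring (*Cox6a2* added), and 0 to 1 with 1 array left out. At any fold 2 passed, and 1 with only the 6 arrays compared or array weights, 5 with a variance trend or the filter, 0 with every probe set tested, and 1 to 5 with 1 array left out.

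With irbesartan in *db/db* mice no gene was called, 1 (*Cox6a2*) with array weights and 0 to 1 with 1 array left out. At any fold 1 passed, and 3 with only the 6 arrays compared, 11 with array weights, 5 with a variance trend or the filter, 4 with median centring, 0 with the ANOVA, every probe set tested, a second quantile normalization or the replicate block, and 0 to 7 with 1 array left out. Median centring moved the median of the 89 genes from -0.05 to -0.11. The cause of these changes was not tested. The replicate block took away the passing of *Atp5o* there and of *Cox5a* and *Ndufa6* in treated *db/db* against *db/m* mice (7 of 9 left) and changed no other pass.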
